A study of Rattus norvegicus with 6 samples.

Results

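The 46 genes described here encode enzymes that modify or conjugate small molecules. They were taken by name from the 26319 Ensembl gene IDs of a rat glomerular RNA-seq table. Only the 12321 IDs with a symbol in the authors' deposited results could be members, so genes of these families without one are absent. A gene was a member if the authors' symbol for it began with CYP and a number, GST, UGT1, UGT2 or SULT, with CYP26B1 and CYP51A1 left out. The members are 21 cytochrome P450 genes (CYP), 15 glutathione transferase genes (GST), 2 UDP-glucuronosyltransferase genes (UGT) and 8 sulfotransferase genes (SULT). The authors gave human symbols to the rat IDs, so several rat genes can carry 1 human symbol, and the members have 41 distinct symbols. For 9 members the authors' files gave more than 1 symbol, and both are printed with a slash. The study sequenced polyadenylated RNA of glomeruli, the filtering units of the kidney, isolated from Sprague Dawley rats. Its 3 groups of 2 libraries were wild-type (WT) rats of 20.4 and 21.9 weeks, AT1R Tg rats given vehicle, of 20.4 and 17.4 weeks, and AT1R Tg rats given AC1903, of 23.0 and 20.4 weeks. AT1R Tg rats carry a transgene for the angiotensin II type 1 receptor, and the labels do not name the promoter that drives it. AC1903 is a small-molecule inhibitor of the ion channel TRPC5. The labels list vehicle as the treatment of the WT rats too, and name no batch or litter. The 2 libraries of each group differ in age, so they are not from the same rat at 1 time, and the labels do not say whether a library pools animals.

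Cytochrome P450 enzymes are haem proteins that insert an oxygen atom into drugs, fatty acids, sterols and vitamin D. GSTs attach glutathione to reactive compounds, UGTs attach glucuronic acid and SULTs attach sulfate, which makes the products more soluble and easier to excrete. In the kidney many of these enzymes are known mainly from the proximal tubule, the segment that follows the glomerulus and secretes drugs and their conjugates. CYP4A and CYP4F enzymes hydroxylate fatty acids and can make the vasoactive lipid 20-HETE from arachidonic acid.

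Total counts were 25045081 and 36026772 in the WT, 13464600 and 14230770 in the vehicle and 12325515 and 12637582 in the AC1903 libraries. Levels are in CPM, expected counts scaled by library size and TMM factor, and 3 counts in a library equal between 0.0833 and 0.243 CPM. CPM values are not divided by gene length, so levels of different genes are not compared. All 46 members passed the filter on low counts, as did 13426 genes in all. Of the 12321 IDs with a symbol, 12302 passed, so this was nearly fixed by the rule for members. It does not show that every gene of these families is expressed. Podocyte markers were present, as the tissue label requires. The summed level of 13 of them was 14308 and 11996 CPM in the WT libraries. It was 15237 and 8078 CPM with vehicle and 9557 and 12485.5 CPM with AC1903. Markers of the proximal tubule, called tubule markers below, were also present. Of 35 such markers, 31 had an ID, and none was at 0 in any library. Their summed level was 5061 and 3050 CPM in the WT libraries, then 7280 and 14340 CPM with vehicle and 7650 and 7544 CPM in the AC1903 libraries. The second vehicle library had the highest of these sums and the lowest podocyte sum. Other tubule segments differed from this: 12 markers of the loop, distal tubule and collecting duct summed to 507 and 446 CPM in WT libraries. With vehicle these 12 summed to 492 and 507 CPM, and with AC1903 to 721 and 679 CPM. In bulk RNA, fewer cells of a type and less RNA per cell cannot be told apart.

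Most of the enzyme genes stood higher in AT1R Tg glomeruli with vehicle than in WT glomeruli. The log2 difference was positive for 37 of 46 members and negative for 9, against 46.6% and 53.4% of all genes tested. Its median was 0.62 over the members and -0.029 over all genes tested. In 29 members both vehicle libraries lay above both WT libraries, and in 4 both lay below, where 20.6% and 23.4% of all genes did so. SULTs had the highest family median, 1.48, followed by the 2 UGTs with 0.92, the GSTs with 0.63 and the P450s with 0.34. Of the 8 SULT records, 5 carry the symbol SULT1C2 and share reads, and the other 3 had a median of 0.69.

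No member passed edgeR's quasi-likelihood test at an adjusted p of 0.05, which 10 genes passed (0.0745% of those tested). The members' adjusted p-values ran from 0.145 to 0.994. At an unadjusted p under 0.05, 21 members were higher and 0 lower, against 8.57% and 3.35% of all genes. DESeq2 called 16 members higher and 0 lower at the same threshold, where it called 3.78% of all genes higher and 0.395% lower. The authors' deposited table also has 16 members higher and 0 lower, against 4.01% and 0.414% of its genes. The 16 members called by DESeq2 are 5 SULT1C2 records, 4 alpha-class GSTs, GSTZ1, both UGTs, CYP2E1, CYP4F11/CYP4F2 and 2 CYP4A records. Without the first vehicle library, edgeR called 12 members and 3.8% of all genes, and with no filter on low counts it called 17 members and 4.46%.

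The proximal tubule markers differed in the same direction: 30 of 31 had a positive log2 difference, with a median of 1.44, and DESeq2 called 23. With the per-library level of these markers as a covariate, 30 of 46 members had a positive difference and the members' median was 0.18. edgeR called 0 members with the covariate, as it did without. The marker level, as log2 distance from its mean, was -0.37 and -1.16 in WT and 0.11 to 1.04 in AT1R Tg libraries. It thus runs with genotype, and this fit cannot separate the 2. Of the 16 members called by DESeq2, 5 had a difference below 0 with the covariate: CYP2E1, CYP4A11/CYP4A22, CYP4A22 ENSRNOG00000030154 and the SULT1C2 records ENSRNOG00000031833 and ENSRNOG00000040195. Of the 46 members, 24 were highest in the second vehicle library, the library with the highest marker sum, against 21.1% of all genes. In the second WT library, the one with the lowest marker sum, 24 were lowest, against 20.1% of all genes. Both held for 19 members, 7 of them GSTs, 6 P450s, 5 SULTs and 1 UGT, and for 9.0% of all genes. The second vehicle library also has the youngest age, 17.4 weeks. With age as a covariate, 38 of 46 members were positive and their median was 0.53, against 0.62 without it. The family medians were then 1.02 for SULT, 0.65 for UGT, 0.43 for GST and 0.23 for CYP. Without a covariate, markers of the loop, distal tubule and collecting duct were positive in 8 of 12, with a median of 0.079. The part of proximal tubule RNA in the members' differences was otherwise not tested.

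**Figure D1:**
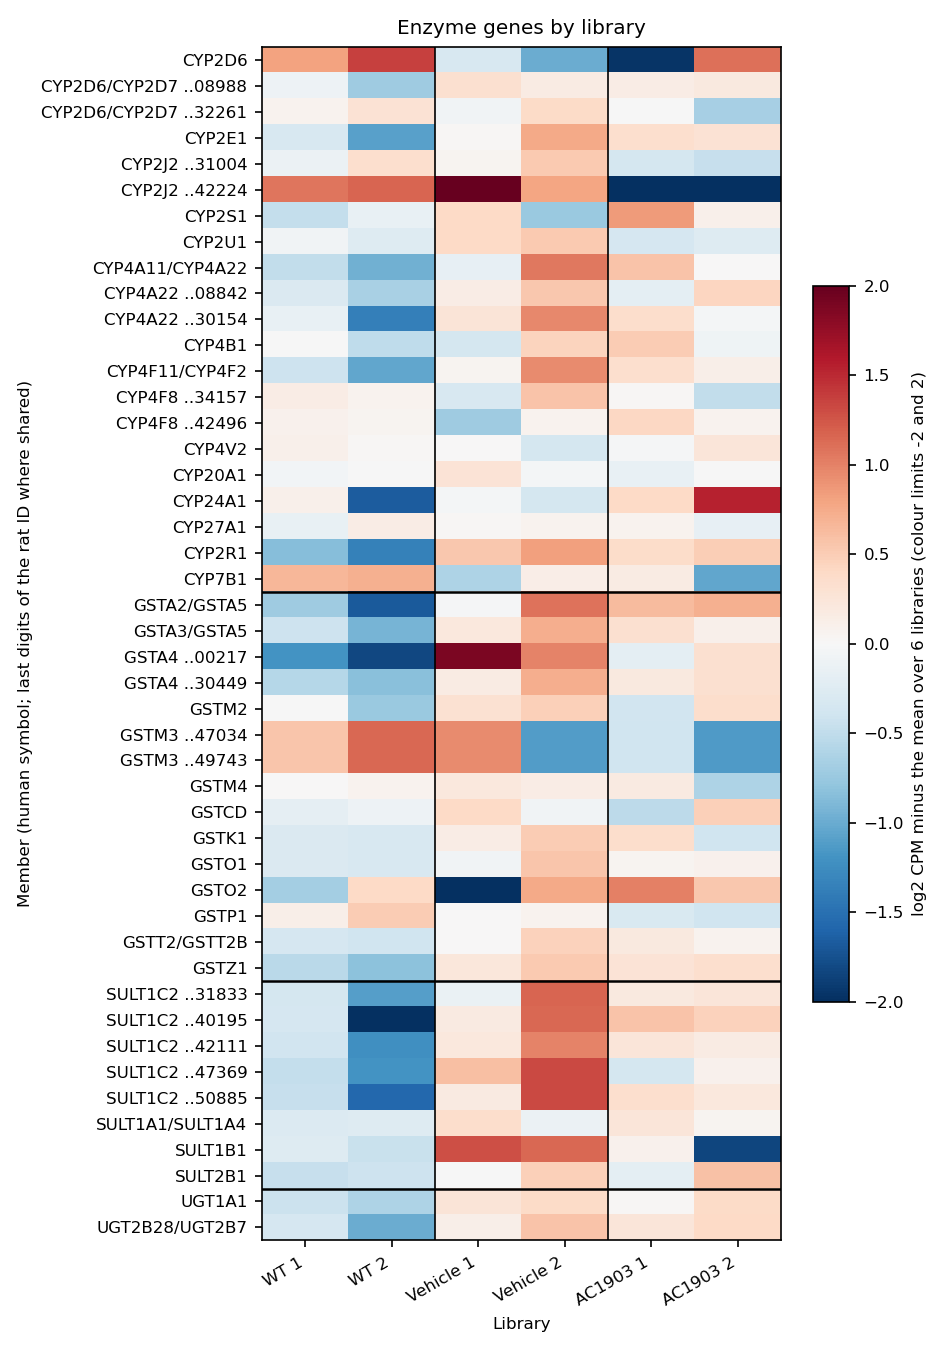
Level of each of the 46 members (rows, by enzyme family, with the last digits of the rat ID where a symbol is shared) in the 6 libraries (columns), as log2 CPM minus the member's mean over the libraries. CPM below 0.05 was drawn as 0.05 and the colours end at -2 and 2. The second vehicle column is red for most alpha-class GST, SULT1C2 and CYP4A rows, and the second WT column is blue there.

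Among the P450s, the fatty acid hydroxylases of the CYP4A group and CYP4F11/CYP4F2 stood higher in both vehicle libraries than in both WT libraries. CYP4A22 ENSRNOG00000030154 was measured at 789.9 and 340.3 CPM in WT, at 1048 and 1705 CPM in vehicle and at 1116 and 856 CPM in AC1903 libraries. Its vehicle values lay above its WT values, its AC1903 values lay between the vehicle and WT group means, and the WT libraries themselves were far apart. The log2 difference between vehicle and WT was 1.28 ± 0.40 (SE), with an adjusted p of 0.230 in edgeR and 0.0187 in DESeq2. CYP4F11/CYP4F2, whose human namesake CYP4F2 hydroxylates arachidonic acid and vitamin K, stood at 20.8 and 13.5 CPM in the WT libraries, at 28.9 and 53.2 CPM with vehicle and at 34.9 and 30.2 CPM with AC1903. The vehicle and WT libraries did not overlap, and the second vehicle library was the highest of the 6. Its difference was 1.26 ± 0.31 (SE), with an adjusted p of 0.183 in edgeR and 0.0120 in DESeq2. CYP4A11/CYP4A22 was measured at 13.4 and 9.705 CPM in WT, at 16.8 and 39.2 CPM in vehicle and at 28.03 and 18.9 CPM in AC1903 libraries. CYP4A22 ENSRNOG00000008842 was measured at 38.4 and 30.01 CPM in WT, at 51.9 and 67.9 CPM in vehicle and at 41.01 and 62.99 CPM in AC1903 libraries. In both, the 2 vehicle libraries lay above the 2 WT libraries. Their log2 differences were 1.28 and 0.81, and DESeq2 called the first (adjusted p of 0.0443) and not the second (0.0707).

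The other 4 CYP4 genes had log2 differences between -0.35 and 0.35. CYP4V2, a fatty acid hydroxylase mutated in a human retinal dystrophy, was at 48.3 and 45.7 CPM in WT, at 45.4 and 35.2 CPM in vehicle and at 44.2 and 53.5 CPM in AC1903 libraries. Both vehicle values lay below both WT values. CYP4B1 was at 29.9 and 21.1 CPM in the WT libraries, at 23.7 and 41.2 CPM with vehicle and at 42.9 and 28.3 CPM with AC1903, with vehicle values on both sides of the WT values. The log2 differences of vehicle against WT were -0.22 for CYP4V2 and 0.35 for CYP4B1, with adjusted p-values of 0.707 and 0.731 in edgeR. The 2 CYP4F8 records, with 3.68 to 22.6 CPM over all libraries, overlapped between vehicle and WT. Over the 8 CYP4 genes, 6 differences were positive and the median was 0.58.

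In the CYP2 family, CYP2E1 was the 1 member that DESeq2 called. CYP2E1 oxidises ethanol, acetone and small solvents. It stood at 35.8 and 21.1 CPM in WT, at 45.6 and 75.9 CPM in vehicle and at 56.4 and 54.8 CPM in AC1903 libraries. All AT1R Tg libraries, treated or not, stood above both WT libraries. In log2 terms the difference was 1.09 ± 0.30 (SE) for vehicle against WT, with an adjusted p of 0.193 in edgeR and 0.0245 in DESeq2. For AC1903 against WT it was 0.97 ± 0.30 (SE), with adjusted p-values of 0.360 and 0.123. CYP2U1, a P450 that hydroxylates long-chain fatty acids, was measured at 3.302 and 2.87 CPM (WT), 4.53 and 4.97 CPM (vehicle) and 2.75 and 2.88 CPM (AC1903). Its 2 vehicle libraries stood above the other 4. CYP2S1 and the 3 CYP2D6 records lay between 0.2496 and 12.3 CPM. Of those 4, vehicle and WT did not overlap in CYP2D6 ENSRNOG00000030182, which was lower with vehicle, and in CYP2D6/CYP2D7 ENSRNOG00000008988, which was higher. CYP2D6/CYP2D7 ENSRNOG00000032261 and CYP2S1 overlapped. The CYP2 median was 0.34, with 6 of 8 differences positive.

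CYP2J2 ENSRNOG00000042224 was the member with the smallest p between AC1903 and vehicle. CYP2J2 enzymes turn arachidonic acid into epoxides. Its counts were 22 and 31 in WT, 22 and 8 in vehicle, and 1 and 0 in AC1903 libraries. Both AC1903 libraries were at or under the floor of 3 counts. Scaled for depth, the AC1903 libraries held 0.0359 times the level of the vehicle libraries, with an exact 95% interval of 0.00088 to 0.216 that covers counting error only. Against WT the ratio was 0.0498, with an interval of 0.00124 to 0.290. The edgeR p was 0.00741 before and 0.549 after adjustment, and DESeq2's adjusted p was 0.273. The other CYP2J2 record, ENSRNOG00000031004, had 4.88 and 6.696 CPM (WT), 5.52 and 7.65 CPM (vehicle) and 4.16 and 3.84 CPM (AC1903). It was also lowest in the 2 AC1903 libraries, with a log2 difference from vehicle of -0.72 and an unadjusted p of 0.0792 in edgeR.

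The 4 sterol and vitamin D P450s had no common direction. CYP24A1, which inactivates vitamin D hormone, stood at 14.6 and 4.28 CPM in WT, at 13.2 and 10.6 CPM in vehicle and at 17.8 and 39.6 CPM in AC1903 libraries. The second AC1903 library was the highest, the second WT library the lowest, and vehicle and WT overlapped. Between AC1903 and vehicle the log2 difference was 1.27 ± 0.55 (SE), with an unadjusted p of 0.0502 and an adjusted p of 0.612 in edgeR. CYP7B1, an oxysterol hydroxylase, was at 7.54 and 7.81 CPM in the WT libraries, at 3.11 and 5.21 CPM with vehicle and at 5.32 and 2.32 CPM with AC1903. Both WT libraries stood above all 4 AT1R Tg libraries, the opposite order to most members. CYP2R1, a vitamin D 25-hydroxylase, was at 0.538 and 0.3795 CPM (WT), 1.42 and 1.71 CPM (vehicle) and 1.25 and 1.36 CPM (AC1903). Here all 4 AT1R Tg libraries stood above the 2 WT libraries, at low levels. CYP27A1, the mitochondrial sterol hydroxylase, stayed between 13.03 and 16.2 CPM in all libraries. CYP20A1, an orphan P450 with no settled substrate, was between 30.1 and 40.4 CPM, and its groups overlapped in each comparison.

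**Figure D2:**
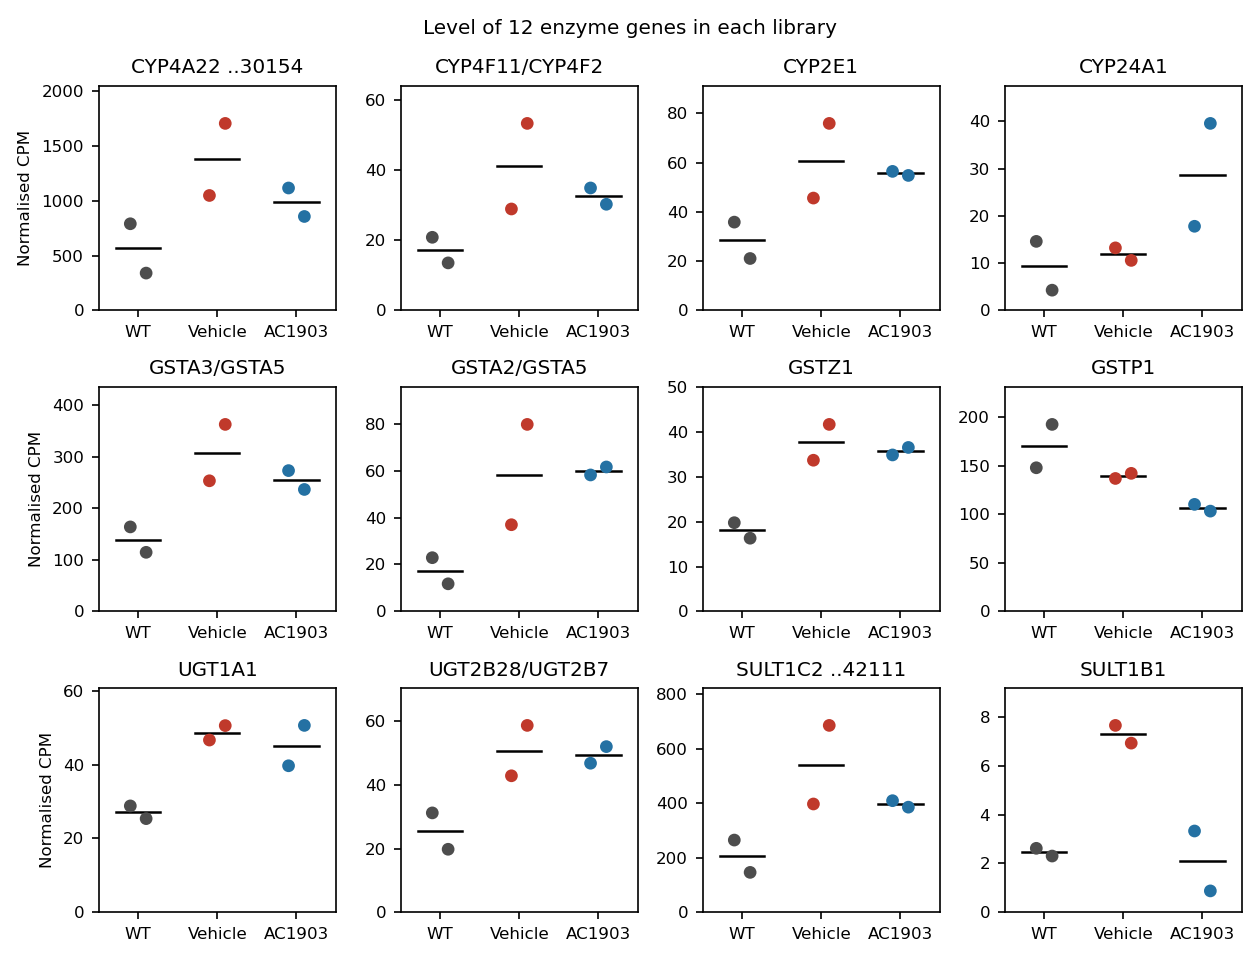
Normalised CPM (vertical axes, from 0) of 12 members in each library, by group. Points are libraries and the line is the mean of 2 libraries. CYP4A22, CYP4F11/CYP4F2, CYP2E1, both GSTA records, GSTZ1, both UGT records and the SULT records have both vehicle points above both WT points. GSTP1 shows the reverse order and CYP24A1 overlaps.

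Alpha-class GSTs, which conjugate lipid peroxidation products and reduce organic peroxides, stood higher in vehicle than in WT glomeruli in 4 of 4 records. GSTA3/GSTA5 was measured at 164 and 115 CPM in WT, at 253 and 363 CPM in vehicle and at 273 and 237 CPM in AC1903 libraries. The lowest vehicle library stood above the highest WT library. GSTA2/GSTA5 was measured at 22.9 and 11.8 CPM in the WT libraries, at 36.9 and 79.7 CPM with vehicle and at 58.1 and 61.5 CPM with AC1903. WT and AT1R Tg libraries did not overlap, and the second vehicle library was the highest. GSTA4, an isoform with preference for the lipid aldehyde 4-hydroxynonenal, had 17.2 and 14.3 CPM (WT), 28.9 and 42.3 CPM (vehicle) and 29.4 and 32.1 CPM (AC1903) for ENSRNOG00000030449, again with no overlap. The log2 differences of vehicle against WT were 1.15 ± 0.24 (SE) for GSTA3/GSTA5, 1.75 ± 0.39 (SE) for GSTA2/GSTA5 and 1.17 ± 0.22 (SE) for this GSTA4 record. Adjusted p-values were 0.178, 0.178 and 0.157 in edgeR and 0.00113, 0.00157 and 0.00162 in DESeq2. The other GSTA4 record, ENSRNOG00000000217, was near the counting floor in WT, with 0.251 and 0.163 CPM (WT), 2.12 and 1.14 CPM (vehicle) and 0.499 and 0.719 CPM (AC1903). Its log2 difference of 2.96 ± 0.85 (SE) rests on 7.04 and 6 WT counts, and DESeq2's adjusted p was 0.0372.

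GSTZ1, a GST that also isomerises maleylacetoacetate in tyrosine breakdown, had the smallest p of the members in both comparisons with WT. It stood at 19.8 and 16.3 CPM in WT, at 33.8 and 41.8 CPM in vehicle and at 34.9 and 36.6 CPM in AC1903 libraries. The spread within each group was small beside the gap between WT and the AT1R Tg groups, and vehicle and AC1903 overlapped. The log2 difference was 1.06 ± 0.19 (SE) for vehicle against WT, with an edgeR p of 0.000398 before and 0.145 after adjustment and a DESeq2 adjusted p of 0.000870. For AC1903 against WT it was 0.99 ± 0.19 (SE), with adjusted p-values of 0.239 in edgeR and 0.00545 in DESeq2.

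GSTP1, the pi-class enzyme found in many cell types outside the liver, had the opposite order. It was measured at 148 and 193 CPM in WT, at 137 and 142 CPM in vehicle and at 110.3 and 103 CPM in AC1903 libraries. Both WT libraries were above both vehicle libraries, which were above both AC1903 libraries. Its log2 difference was -0.29 ± 0.17 (SE) for vehicle against WT, -0.39 ± 0.17 (SE) for AC1903 against vehicle and -0.67 ± 0.17 (SE) for AC1903 against WT. Adjusted p-values in edgeR were 0.580, 0.612 and 0.323, and DESeq2 called the last comparison (adjusted p of 0.0476). GSTO1, which reduces dehydroascorbate and arsenic compounds, stood at 59.97 and 58.3 CPM in the WT libraries, at 69.4 and 107 CPM with vehicle and at 75.9 and 77.5 CPM with AC1903. Its vehicle libraries lay above WT, by much less in the first than in the second. GSTM4, of the mu class, had 21.1 and 22.04 CPM (WT), 24.2 and 23.3 CPM (vehicle) and 23.9 and 13.7 CPM (AC1903). The second AC1903 library was the lowest, and the other libraries lay close together. The 2 GSTM3 records had identical values in every library, and their summed level was 2.62 and 3.87 CPM in the WT libraries, then 3.40 and 0.814 CPM with vehicle and 1.33 and 0.799 CPM in the AC1903 libraries. GSTM2, GSTCD and GSTO2 were between 0.283 and 3.91 CPM. GSTK1, the mitochondrial and peroxisomal kappa-class enzyme, and GSTT2/GSTT2B, of the theta class, were each higher in both vehicle than in both WT libraries, with log2 differences of 0.65 and 0.63. The mu class had a median of -0.24, in which the identical GSTM3 records, at -0.61 each, count as 2 of 4. GSTM2 and GSTM4 were positive, at 0.72 and 0.14. In edgeR 0 of the 4 members passed an unadjusted p of 0.05.

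Promoter sequences are printed for 3 members whose levels differed in contrasting ways: GSTZ1 and CYP2E1, higher in both vehicle than in both WT libraries, and GSTP1, lower. They are the 250 bases before the RefSeq gene start, from the RefSeq table for the GRCr8 build, read 5′ to 3′ on the gene's strand. The windows are chr6:112525356-112525605, forward strand, for GSTZ1, chr1:210769706-210769955, reverse strand, for GSTP1, and chr1:205269717-205269966, forward strand, for CYP2E1. Of 21 members with a symbol of their own, 18 matched the table, with 20 windows. The 2 motifs reported, searched on both strands, were the antioxidant response element TGACNNNGC and the core of the dioxin response element GCGTG. The first can overlap the AP-1 motif TGACTCA, which was not searched on its own. The GSTP1 match, TGACTCAGC, contains that motif in full. Capitals mark the matches, and a match on the opposite strand appears as its reverse complement.
GSTZ1: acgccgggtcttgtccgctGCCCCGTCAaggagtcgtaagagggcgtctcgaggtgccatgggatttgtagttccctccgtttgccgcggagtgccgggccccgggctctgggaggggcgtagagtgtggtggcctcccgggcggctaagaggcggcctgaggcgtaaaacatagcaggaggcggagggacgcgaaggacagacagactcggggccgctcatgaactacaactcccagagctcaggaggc
GSTP1: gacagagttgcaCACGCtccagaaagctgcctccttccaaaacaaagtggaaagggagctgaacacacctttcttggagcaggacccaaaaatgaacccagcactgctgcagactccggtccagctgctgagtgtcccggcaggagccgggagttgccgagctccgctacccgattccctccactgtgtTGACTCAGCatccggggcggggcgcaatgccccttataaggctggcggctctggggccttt
CYP2E1: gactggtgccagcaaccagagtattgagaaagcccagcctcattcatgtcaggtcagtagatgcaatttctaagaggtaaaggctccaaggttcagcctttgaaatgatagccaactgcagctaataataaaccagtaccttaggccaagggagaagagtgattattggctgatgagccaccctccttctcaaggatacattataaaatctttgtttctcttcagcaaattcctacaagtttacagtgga
The antioxidant response element letters began at -231 in GSTZ1 and at -61 in GSTP1, counted from the gene start. GSTP1 also had the dioxin response core at -238, and CYP2E1 had no match. Among the 18 members, 5 had the antioxidant element, in CYP2S1, CYP4B1, GSTCD, GSTP1 and GSTZ1, where 10.1% of 33469 rat promoters of the same length had it. The dioxin core was in 7 members and 25.9% of promoters. A match describes the letters of this window and no binding was measured.

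Both UGTs stood higher in vehicle than in WT glomeruli. UGT1A1, the enzyme that conjugates bilirubin, was at 28.8 and 25.4 CPM in WT, at 46.6 and 50.5 CPM in vehicle and at 39.7 and 50.6 CPM in AC1903 libraries. UGT2B28/UGT2B7, of the subfamily that conjugates steroids, bile acids and many drugs, was at 31.2 and 19.8 CPM in the WT libraries, at 42.8 and 58.6 CPM with vehicle and at 46.7 and 51.96 CPM with AC1903. In both genes all 4 AT1R Tg libraries stood above the 2 WT libraries, and vehicle and AC1903 overlapped. The log2 difference of vehicle against WT was 0.84 ± 0.18 (SE) for UGT1A1 and 0.99 ± 0.25 (SE) for UGT2B28/UGT2B7. Adjusted p-values were 0.178 and 0.187 in edgeR and 0.00681 and 0.0187 in DESeq2. For AC1903 against WT the differences were 0.74 and 0.96, and neither tool called them (edgeR adjusted p of 0.309 and 0.326, DESeq2 0.0579 and 0.0614). UGT1 transcripts share their last exons, so reads counted under UGT1A1 can come from other UGT1A isoforms.

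The SULTs gave the highest family median, and 5 of the 8 records carry the symbol SULT1C2, a sulfotransferase of phenolic compounds. SULT1C2 ENSRNOG00000042111 stood at 265 and 147 CPM in WT, at 398 and 686 CPM in vehicle and at 409.8 and 386 CPM in AC1903 libraries. SULT1C2 ENSRNOG00000050885 stood at 32.6 and 15.02 CPM in the WT libraries, at 50.5 and 112 CPM with vehicle and at 56.6 and 51.7 CPM with AC1903, and ENSRNOG00000047369 at 3.34 and 2.03 CPM (WT), 7.08 and 11.6 CPM (vehicle) and 3.66 and 4.96 CPM (AC1903). In each of these 3 records the vehicle libraries lay above the WT libraries and the second vehicle library was the highest. Their log2 differences of vehicle against WT were 1.39 ± 0.33 (SE), 1.77 ± 0.42 (SE) and 1.80 ± 0.42 (SE). Adjusted p-values were 0.180, 0.180 and 0.178 in edgeR and 0.00208, 0.00246 and 0.00599 in DESeq2. SULT1C2 ENSRNOG00000031833 had 47.05 and 27.9 CPM (WT), 54.6 and 135 CPM (vehicle) and 69.1 and 70.9 CPM (AC1903), and ENSRNOG00000040195 had 9.26 and 2.87 CPM (WT), 13.3 and 26.05 CPM (vehicle) and 17.5 and 16.2 CPM (AC1903). Their log2 differences were 1.34 and 1.71, and DESeq2 called both, with adjusted p-values of 0.0224 and 0.0281. The SULT1C2 records share reads, so they are not 5 independent observations. Summed over the 5 records, the level was 358 and 195 CPM in the WT libraries, then 523 and 971 CPM with vehicle and 557 and 529.8 CPM in the AC1903 libraries, and the log2 difference of vehicle against WT was 1.44 ± 0.35 (SE), with an adjusted p of 0.182 in edgeR.

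SULT1B1, which sulfates thyroid hormones and phenols, had vehicle and AC1903 values that did not overlap. It was at 2.62 and 2.304 CPM in WT, at 7.64 and 6.92 CPM in vehicle and at 3.33 and 0.879 CPM in AC1903 libraries. Both vehicle libraries stood above all the others, and the second AC1903 library was the lowest of the 6. On the log2 scale the difference was 1.56 ± 0.55 (SE) for vehicle against WT and -1.79 ± 0.58 (SE) for AC1903 against vehicle. In edgeR the second had an unadjusted p of 0.0137 and an adjusted p of 0.556, and DESeq2's adjusted p was 0.186. SULT1A1/SULT1A4, a phenol sulfotransferase, was at 21.1 and 21.3 CPM in the WT libraries, at 32.5 and 23.4 CPM with vehicle and at 30.03 and 26.4 CPM with AC1903. SULT2B1, a cholesterol sulfotransferase, was at 1.87 and 1.92 CPM (WT), 2.55 and 3.58 CPM (vehicle) and 2.25 and 3.84 CPM (AC1903). Both had vehicle values above WT values, and AC1903 values that overlapped those of vehicle.

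Reads that fit several genes were shared out in 16 members, whose expected counts are fractions. These 16 include 10 of the 16 DESeq2 calls and had a median log2 difference of 1.23 between vehicle and WT. The 30 members counted in whole reads had a median of 0.51, with 25 positive, and DESeq2 called 6. Summing the 4 alpha-class GST records gave a difference of 1.23 with an adjusted p of 0.179 in edgeR, and summing the 3 CYP4A records gave 1.26 with 0.226. These sums were chosen after the data were seen. Of the 3 CYP4A records only CYP4A22 ENSRNOG00000030154 has fractional counts, so their sum does not address its shared reads.

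**Figure D3:**
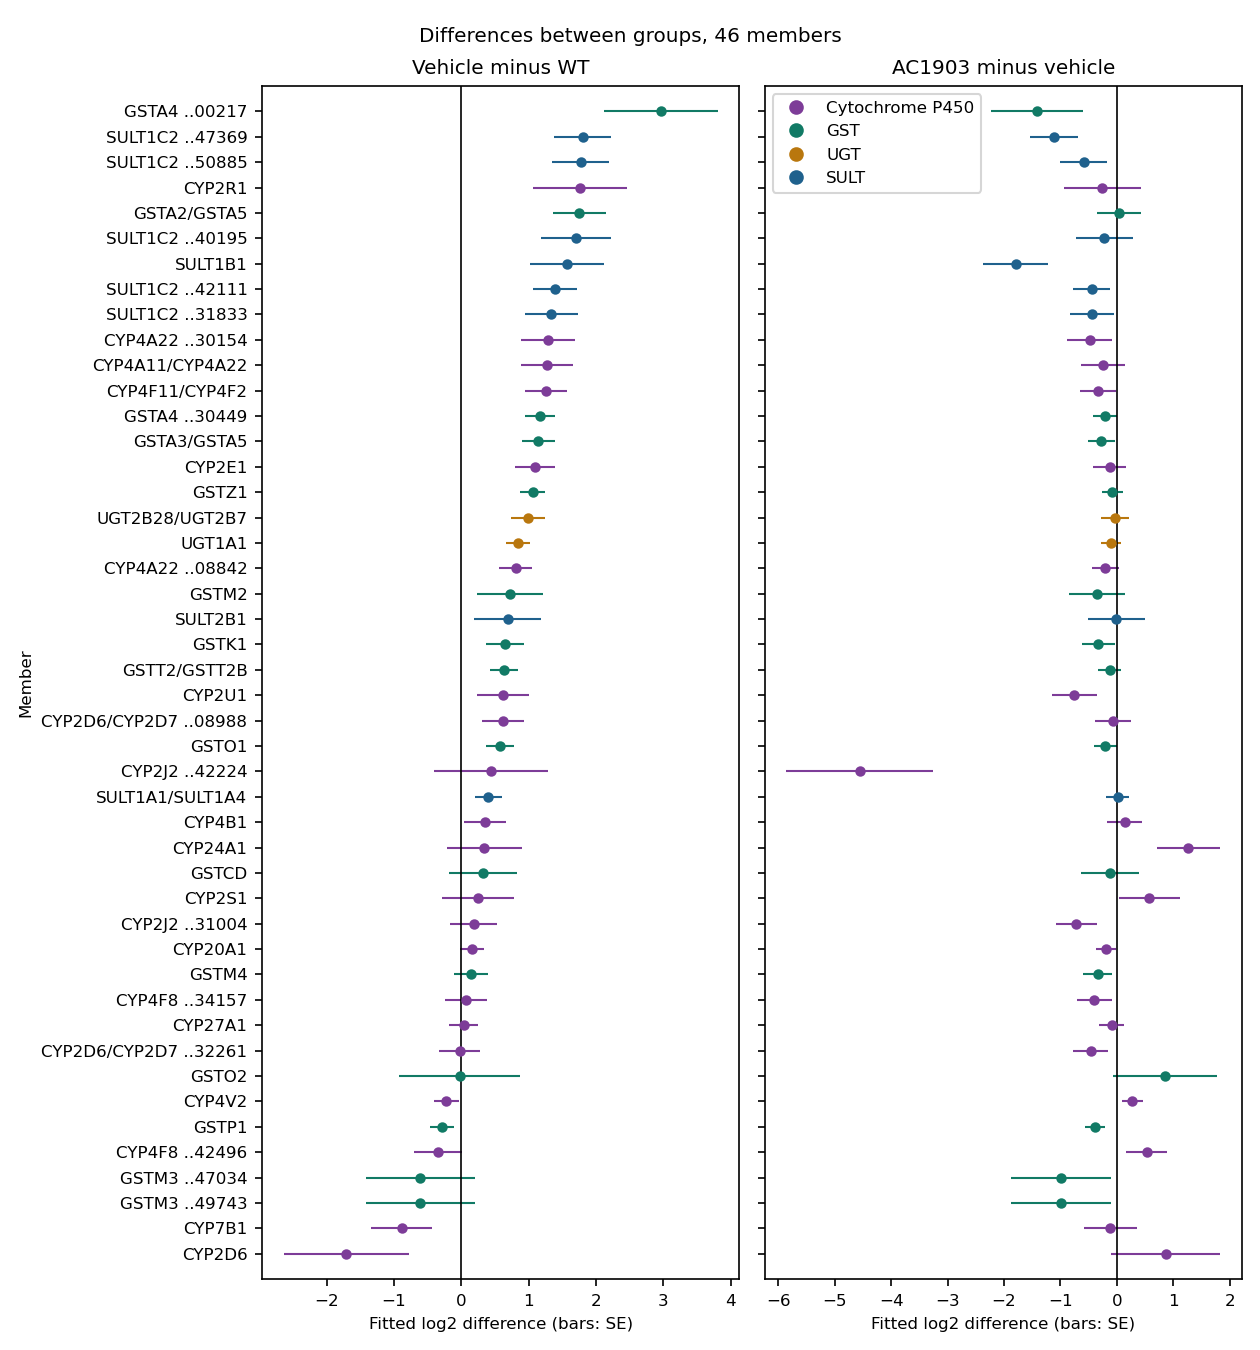
Fitted log2 differences (horizontal axes, with bars for the SE) of the 46 members between vehicle and WT (left) and between AC1903 and vehicle (right), in the same order of rows. Colours give the enzyme family. On the left 37 members lie above 0, and on the right 37 lie below 0. The 2 panels share the vehicle libraries.

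Between AC1903 and vehicle, most members overlapped and none passed an adjusted test. A negative log2 difference was found in 37 of 46 members and a positive one in 9, against 52.1% and 47.9% of all genes tested, with a median of -0.22 against -0.019. The groups overlapped in 36 members, both AC1903 libraries lay below both vehicle libraries in 8 and above in 2, where 18.4% and 19.9% of all genes did so. No member and no gene passed edgeR at an adjusted p of 0.05 (0.0% of 13426 genes). At an unadjusted p under 0.05, 3 members were lower and 0 higher, where 2.77% and 5.35% of all genes were. These 3 are CYP2J2 ENSRNOG00000042224, SULT1B1 and SULT1C2 ENSRNOG00000047369. DESeq2 called 0 members, and 0.439% of all genes higher and 0.0596% lower. The authors' deposited table, which has 45 of the members, also calls 0, with 0.369% and 0.00821% of its genes. With no filter on low counts edgeR called 0 members and 0.657% of all genes. The family medians were -0.44 for SULT, -0.27 for GST, -0.20 for CYP and -0.072 for UGT. The vehicle libraries are the same as in the comparison with WT, so a low or high vehicle value moves both comparisons in opposite directions.

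Among the members with the next smallest p-values between AC1903 and vehicle, differences lay on both sides of 0. SULT1C2 ENSRNOG00000047369 had a log2 difference of -1.12 ± 0.42 (SE), with an unadjusted p of 0.0278 and an adjusted p of 0.602 in edgeR. CYP2U1 had -0.75 ± 0.40 (SE) and GSTA4 ENSRNOG00000000217 had -1.41 ± 0.82 (SE), with unadjusted p-values of 0.0927 and 0.122. CYP24A1 was the member with the highest positive difference. Without the second vehicle library, which had the highest proximal tubule marker sum, the members' median was -0.0038 and 22 of 46 were positive. Without the first it was -0.42. Age as a covariate gave a median of 0.061 and 27 positive members of 46. The proximal tubule markers had a negative difference in 30 of 31, with a median of -0.43. Those of the loop, distal tubule and collecting duct were positive in 10 of 12, with a median of 0.59. The members' median thus came near 0 without the second vehicle library, the youngest at 17.4 weeks, and changed sign with age as a covariate.

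Most members also stood higher in AC1903 than in WT glomeruli. Of the 46 members, 32 had a positive and 14 a negative log2 difference, against 50.2% and 49.8% of all genes, and the median was 0.52 against 0.0019. Both AC1903 libraries lay above both WT libraries in 26 members and below in 8, where 24.2% and 23.5% of all genes did. At an unadjusted p under 0.05, 16 members were higher and 2 lower, against 6.92% and 4.2% of all genes. edgeR called 0 members and 5 genes (0.0372%), and with no filter on low counts 15 members and 2.67% of all genes. DESeq2 called 3 members higher and 1 lower, where it called 0.879% and 0.469% of all genes. GSTZ1, GSTA2/GSTA5 and GSTA4 ENSRNOG00000030449 were higher and GSTP1 was lower. GSTA2/GSTA5 had a log2 difference of 1.79 ± 0.39 (SE) and this GSTA4 record 0.96 ± 0.22 (SE), with DESeq2 adjusted p-values of 0.00203 and 0.0333. GSTA3/GSTA5 had 0.87 ± 0.24 (SE) and was not called (0.0518). The markers of the proximal tubule were positive in 29 of 31 in this comparison too, with a median of 0.93, and with their level as a covariate the members' median was 0.10.

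**Figure D4:**
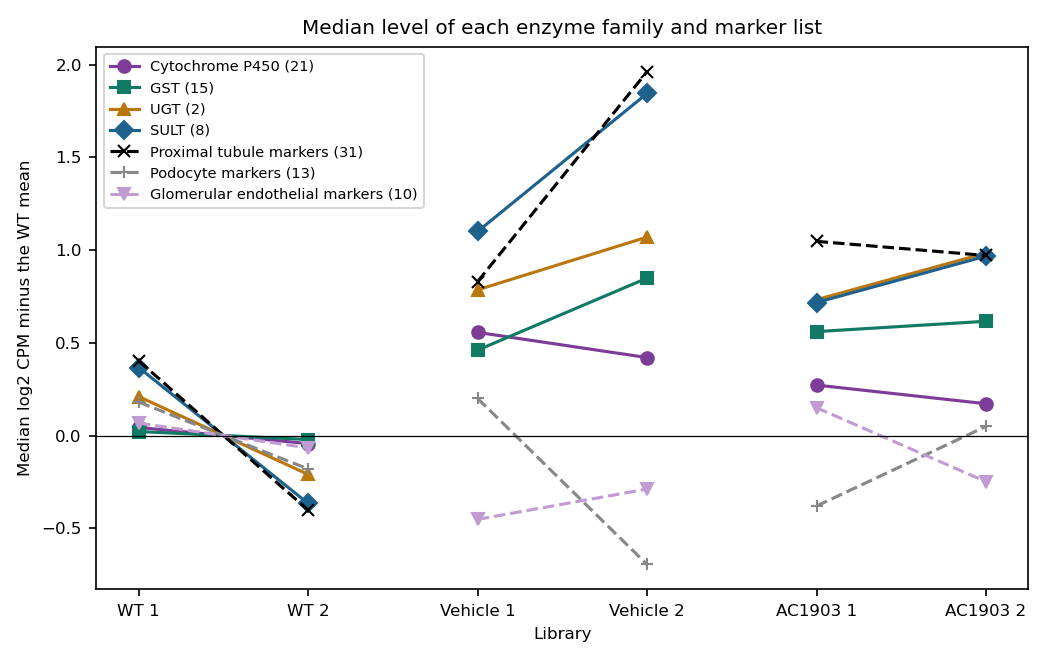
Median log2 CPM minus the WT mean (vertical axis) of each enzyme family and of 3 marker lists, in each library (horizontal axis); lines join the 2 libraries of a group. The number of genes is in the legend. All members together stood at 0.60 and 0.84 with vehicle and at 0.53 and 0.61 with AC1903, and the proximal tubule markers at 0.83 and 1.96, and at 1.05 and 0.97.

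Genes that supply, regulate or work beside these enzymes were read from lists, and edgeR called none of them in any comparison. Over all genes tested, 46.6% had a positive difference between vehicle and WT, and DESeq2 called 3.78% higher and 0.395% lower. Of 21 nuclear receptors and other regulators of xenobiotic enzymes, 18 had a positive difference between vehicle and WT (median 0.63) and DESeq2 called 4 higher. HNF4A, a regulator of hepatic and proximal tubule genes, was at 23.1 and 9.33 CPM in WT, at 34.9 and 69.9 CPM in vehicle and at 32.7 and 32.8 CPM in AC1903 libraries. NR1H4, the bile acid receptor, was at 7.43 and 5.99 CPM (WT), 13.5 and 17.9 CPM (vehicle) and 10.98 and 17.7 CPM (AC1903). In both, the vehicle libraries stood above the WT libraries. A list of 12 genes held electron donors to P450s and also the haem-related genes HMOX1, HMOX2, PGRMC1 and PGRMC2. Of these 12, 8 differences were positive (median 0.25), and DESeq2 called FDX1 higher and CYB5R3 lower. FDX1, the ferredoxin of mitochondrial P450s, was at 12.1 and 11.5 CPM in WT, at 20.2 and 21.3 CPM in vehicle and at 14.4 and 13.6 CPM in AC1903 libraries. CYB5R3, the reductase of cytochrome b5, was at 216 and 248 CPM in the WT libraries, at 149 and 149.9 CPM with vehicle and at 120.2 and 115 CPM with AC1903. Its order, WT above vehicle above AC1903 with no overlap, is the order of GSTP1. Of 19 genes that supply or break down glutathione, its conjugates and other cofactors, 18 were positive (median 0.52) and DESeq2 called 4. Among them was OPLAH, of glutathione recycling, with a difference of 1.07 ± 0.21 (SE) and a DESeq2 adjusted p of 0.00113. Of 47 records of other detoxification enzymes, 36 were positive (median 0.67) and DESeq2 called 14, among them the glycine conjugating enzyme GLYAT, with 1.44 ± 0.27 (SE) and 7e-05. Between AC1903 and vehicle DESeq2 called none of these, and the medians were -0.13, -0.23, -0.27 and -0.33. Over all genes it called 0.439% higher and 0.0596% lower in that comparison.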

How the data were processed

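Expected counts per Ensembl gene were deposited by the authors. The submitters' processing notes name STAR 2.5.2b, RSEM 1.3.0 and the rat build Rnor_5.0, and the labels' protocols give a stranded mRNA kit. The authors' deposited tables also hold log2 fold changes and adjusted p-values for 2 comparisons, by a tool not given in the sources used here. Counts were rounded and tested with edgeR 4.0.16 in R 4.3.3 (TMM scaling, filterByExpr by group, quasi-likelihood test over all 6 libraries with 3 residual degrees of freedom, two-sided). P-values were adjusted by Benjamini-Hochberg over 13426 genes, with a threshold of 0.05. DESeq2 1.42.0 was an alternative. The SE is the log2 difference divided by the square root of its F statistic. The scripts were tested on simulated data. With 2 libraries against 2, a permutation test cannot give a p below 0.333 and was not used. Members with a value in every library were those of highest mean CPM per family and the 8 of smallest p per comparison, and others were named after their values were seen. The members and lists were chosen with earlier results of these data known. Other settings were scaling, count filters, leaving out each library, age, tubule marker level and a replicate block. One further promoter motif that was searched, and some genes of the lists, are not reported here.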

Additional observations from a re-analysis of the deposited data

How the results depend on the processing

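Directions and calls were compared over 15 other settings. In vehicle against WT, edgeR called 0 members and 0.0745% of all genes. DESeq2 called 16 members and 4.17% of all genes, and edgeR with no filter on low counts 17 members and 4.46%. Leaving out 1 library at a time gave 0 to 12 called members, the highest without the first vehicle library, and member medians from 0.55 to 0.81. In AC1903 against vehicle, 0 members were called in each setting; the median was 0.061 with age and -0.022 with the tubule marker level as a covariate, and -0.42 to -0.0038 with 1 library left out. In AC1903 against WT, DESeq2 called 4 members and 1.35% of all genes, and edgeR with no filter 15 members and 2.67%. With 1 library left out the median lay between 0.36 and 0.66. Medians with the tubule marker level as a covariate were 0.18 for vehicle against WT and 0.10 for AC1903 against WT. Under that covariate 16 of 46 members had a difference below 0 between vehicle and WT, against 9 without it. Of the 16 members called by DESeq2, 5 were above 0 without the covariate and below 0 with it: CYP2E1 at -0.054, CYP4A11/CYP4A22 at -0.15, CYP4A22 ENSRNOG00000030154 at -0.068, SULT1C2 ENSRNOG00000031833 at -0.37 and SULT1C2 ENSRNOG00000040195 at -0.15. The cause was not tested.

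Replicate numbers are shared between groups. Same-numbered libraries did not deviate together from their group means (correlations of -0.020, 0.0046 and -0.041 across genes). This cannot show that they have nothing else in common. The first WT and first vehicle libraries, for example, are both of 20.4 weeks. With a replicate block edgeR called 0 members in each comparison, the member medians were 0.63, -0.22 and 0.53, and over all genes the calls were 4 in place of 10, 2 in place of 0 and 7 in place of 5.

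With 2 libraries a group, an arm left with 1 library is assumed to vary like the others. CYP2J2 ENSRNOG00000042224, GSTA4 ENSRNOG00000000217 and GSTM3 rest on few counts, and records that share reads are not independent.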

Other observations

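Drug transporters, which move conjugates and drugs across the cell membrane, had 21 records tested. Between vehicle and WT, 13 were positive (median 0.37), against 46.6% of all genes. DESeq2 called 5 higher and 0 lower, against 3.78% and 0.395% of all genes. ABCG2, an efflux pump for sulfated and glucuronidated compounds, has 2 records. ABCG2 ENSRNOG00000039890 stood at 68.1 and 59.1 CPM in WT, at 207 and 124 CPM in vehicle and at 179 and 159 CPM in AC1903 libraries. All 4 AT1R Tg libraries stood above both WT libraries, and the first vehicle library was the highest. ABCG2 ENSRNOG00000007041 stood at 19.1 and 9.73 CPM in the WT libraries, at 29.6 and 49.9 CPM with vehicle and at 28.5 and 21.9 CPM with AC1903, with the second vehicle library highest. Vehicle and WT did not overlap in either record, and the DESeq2 adjusted p-values were 4.91e-05 and 0.00760. Between AC1903 and vehicle the transporters had a median of -0.40, and DESeq2 called 0.

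Enzymes of prostaglandin and leukotriene metabolism, only some of which use arachidonic acid as CYP4 and CYP2J enzymes do, showed no common direction. Of 10 tested, 6 were positive between vehicle and WT (median 0.22), where 46.6% of all genes were. DESeq2 called 1 higher, PTGDS, the lipocalin-type prostaglandin D synthase, where it called 3.78% of all genes higher. PTGDS was at 25.2 and 11.4 CPM in WT, at 31.1 and 68.6 CPM in vehicle and at 31.9 and 26.9 CPM in AC1903 libraries. PLA2G4A, the phospholipase that releases arachidonic acid, was at 42.7 and 43.02 CPM in the WT libraries, at 30.1 and 28.6 CPM with vehicle and at 26.9 and 35.9 CPM with AC1903, with both vehicle libraries below both WT libraries and a DESeq2 adjusted p of 0.247. Of 11 enzymes of steroid hormone conversion, 7 were positive (median 0.22) and DESeq2 called 0. Macrophage markers, 8 genes, were all negative between vehicle and WT (median -0.28) and all positive between AC1903 and vehicle (median 1.05). Of all genes, 53.4% were negative in the first comparison and 47.9% positive in the second. DESeq2 called 2 of the 8 higher in the second, where it called 0.439% of all genes higher.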
